A study of Mus musculus with 6 samples.

Results

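The calcium effectors that act downstream of the NMDA receptor were examined in GLUTag cells, a murine enteroendocrine line that secretes GLP-1. The 10 genes were taken by name from the 54281 genes of the deposited table. They encode the 4 subunits of CaMKII (Camk2a, Camk2b, Camk2d and Camk2g), the 3 catalytic subunits of calcineurin (Ppp3ca, Ppp3cb and Ppp3cc), its 2 regulatory subunits (Ppp3r1 and Ppp3r2), and neuronal nitric oxide synthase (Nos1). All 10 were found, each under a single gene identifier.

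Expression was measured by 3′ mRNA sequencing in 6 libraries of a single condition, with no treatment named in the labels. The cells had been kept for 48 h on Matrigel in medium with 1 g/L glucose and 10% FBS. Plate 1 held 3 wells at passage 23 (replicates 1, 2 and 3) and plate 2 held 3 wells at passage 27. The plate 2 libraries are called 1, 2 and 3 as numbered within the plate, since they could not be matched to single replicate labels. The plates differ in passage as well, and the 2 cannot be told apart. Wells of a plate share a culture, so a p-value measures only the spread between these libraries. As a model, the line is an established culture grown without the other cells of the gut. The total was between 21399987 and 36488198 counts per library. Levels are given as CPM, the counts of a gene per 1000000 counts of the library. One read stands for one transcript end whatever the transcript length, so that CPM can be set side by side between genes. A count of 0 would allow up to 3 counts, or 0.0822 to 0.14 CPM, and this limit, like the binomial intervals below, covers counting error only.

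Plate 2 library 2 stood apart from the others of its plate. Set against the average of plate 2 libraries 1 and 3, it was over 2-fold lower for 354 and over 2-fold higher for 2 of the 5031 genes whose average level reached 30 CPM. Where the mean without it is given below, that is said. The cell type label was checked against its markers. All 10 enteroendocrine markers had more than 3 counts in every library, with a summed level of 5713 to 7650 CPM, and Gcg, the gene of proglucagon, alone had 3416 ± 771 CPM (SD, n = 6). Of the 6 blood and 7 fibroblast and muscle markers, 1 each, Hba-a1 (1.309 ± 0.712 CPM) and Col1a2 (5.871 ± 0.932 CPM, each SD, n = 6), passed 3 counts in every library, with summed levels of 0.818 to 3.24 and 4.83 to 7.25 CPM, and Col3a1 had a count of 0 throughout. Among 8 enterocyte and goblet markers, 4 passed, with a summed level of 38.7 to 44.3 CPM. Nearly all of it was Tff3, a goblet cell marker (37.81 ± 2.42 CPM), followed by Vil1 (2.125 ± 0.735 CPM, each SD, n = 6), and Fabp2 was at 0. Neuron and glia markers summed to 2584 to 2976 CPM, nearly all of it from the neurofilament genes Nefl and Nefm, while Gfap and Chat had at most 1 count in any library.

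Calcium that enters through an open NMDA receptor binds calmodulin, and calcium-loaded calmodulin switches on all 3 of the enzymes studied here. CaMKII is a serine/threonine kinase of many subunits that phosphorylates itself, stays active after calcium has fallen and docks onto the NMDA receptor. Calcineurin is the opposing calcium-activated phosphatase, a dimer of a catalytic A and a regulatory B subunit, the target of ciclosporin and tacrolimus, and best known for sending NFAT factors to the nucleus. Neuronal nitric oxide synthase is held beside the receptor by the scaffold PSD-95 and makes nitric oxide, which acts on guanylyl cyclase.

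The 10 levels covered nearly 3 orders of magnitude on the CPM scale. Ppp3r1 (236.4 ± 28.8 CPM) and Ppp3ca (232.6 ± 35.9 CPM) were highest, followed by Camk2b (118.0 ± 16.9), Nos1 (62.1 ± 7.16) and Ppp3cb (61.44 ± 13.1, each SD, n = 6). Camk2g, Camk2d, Camk2a and Ppp3cc lay between 13.4 and 2.267 CPM, and Ppp3r2 was lowest with 0.2967 CPM. Thus each enzyme was represented, and in each multigene family a single gene supplied most of the transcripts. Ppp3r1 and Ppp3ca each exceeded 97.5% of the 27044 genes detected at all, and Camk2b exceeded 94.6%. Of the 9 neighbouring places in this order, 6 were the same in 6 of 6 libraries. The order of Ppp3r1 over Ppp3ca held in 4 libraries (mean log2 difference 0.03 ± 0.30, SD, n = 6), that of Nos1 over Ppp3cb in 2 (0.03 ± 0.31) and that of Camk2d over Camk2a in 5 (0.48 ± 0.35). In these 3 neighbouring pairs the order was not the same in every library. Without plate 2 library 2, the mean of Ppp3ca (236.7 CPM) was above that of Ppp3r1 (227.7 CPM).

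**Figure D1:**
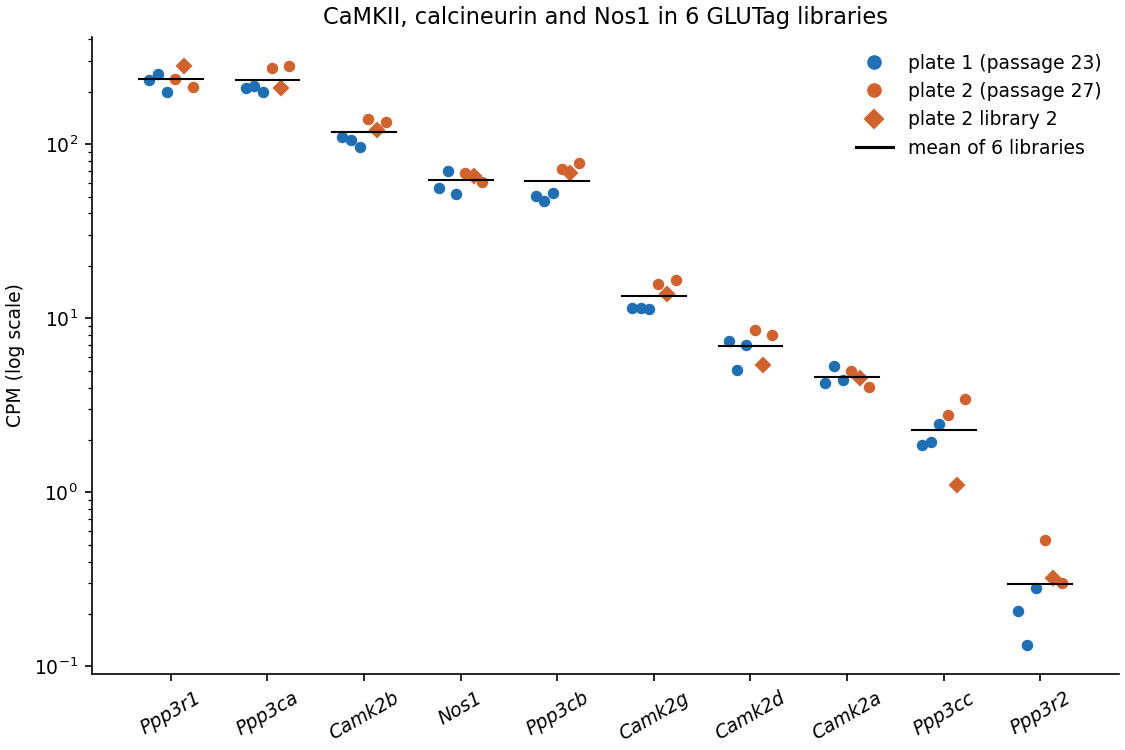
CPM on a log scale of the 10 genes in each of the 6 GLUTag libraries, ordered by their mean (black line); blue points are plate 1, orange points plate 2, and the diamond is plate 2 library 2. Ppp3r1 and Ppp3ca overlap at the top near 236.4 and 232.6 CPM, and Ppp3r2 lies lowest at 0.2967 CPM.

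CaMKII in GLUTag cells was mostly Camk2b, the gene of the β subunit, which is known chiefly from neurons and binds F-actin. Camk2b (ENSMUSG00000057897, chromosome 11 of GRCm38, 5969644 to 6066362, minus strand) had 110.7, 105.4 and 96.5 CPM in plate 1 replicates 1, 2 and 3, and 139.8, 120.7 and 134.6 CPM in plate 2 libraries 1, 2 and 3. These values rest on 2065 to 4911 counts per library. The lowest plate 2 library was above the highest plate 1 library, so the plates did not overlap on this scale. Camk2b supplied 82.5 ± 0.881% of the CaMKII counts (SD, n = 6), from 80.9% in plate 1 replicate 3 (exact binomial 95% interval 79.3 to 82.4%) to 83.6% in plate 2 library 2 (82.5 to 84.7%). The share was 82.2 ± 1.09% on plate 1 and 82.9 ± 0.599% on plate 2 (each SD, n = 3), values that overlapped between the plates.

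Camk2g, the γ subunit gene that is expressed in most tissues, was second. Camk2g (ENSMUSG00000021820, chromosome 14, 20734875 to 20794088, minus strand) had 11.46, 11.44 and 11.26 CPM on plate 1 and 15.77, 13.81 and 16.64 CPM on plate 2, again without overlap between the plates. It gave 9.35 ± 0.548% of CaMKII counts (SD, n = 6). The ratio of Camk2b to Camk2g was 8.86 ± 0.539 (SD, n = 6), with a range of 8.09 to 9.66.

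Camk2d and Camk2a were the minor forms. Camk2d (ENSMUSG00000053819, chromosome 3, 126596302 to 126846326, plus strand), the δ gene that dominates in heart muscle, had 7.377, 5.037 and 7.056 CPM on plate 1 and 8.549, 5.37 and 8.003 CPM on plate 2. Camk2a (ENSMUSG00000024617, chromosome 18, plus strand), the α gene that dominates in forebrain neurons, had 4.251, 5.346 and 4.439 CPM on plate 1 and 4.985, 4.529 and 4.001 CPM on plate 2. In CPM the plates overlapped for both genes. Camk2a alone of the family had a lower mean CPM on plate 2 (4.505 ± 0.492) than on plate 1 (4.679 ± 0.586, each SD, n = 3). Its share of CaMKII counts was 3.70 ± 0.512% on plate 1 and 2.84 ± 0.353% on plate 2 (each SD, n = 3). The shares spanned 3.18 to 4.2% and 2.45 to 3.14%, so the plates were separated only within counting error. The exact binomial 95% intervals of the closest libraries overlapped, with 2.6 to 3.84% in plate 1 replicate 1 and 2.64 to 3.69% in plate 2 library 2.

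The 6 pairs of CaMKII genes and the 4 pairs of calcineurin genes were compared within each library on the scale of log2(CPM + 1). The test was an exact permutation of the signs of the 6 differences (two-sided), and Benjamini-Hochberg adjustment was made for the 10 pairs. The smallest p that 6 libraries allow is 0.031. Camk2b exceeded Camk2g by 3.05 ± 0.08, Camk2d by 3.92 ± 0.25 and Camk2a by 4.40 ± 0.25 on the log2 scale (SD, n = 6), each in 6 of 6 libraries (exact permutation p = 0.031, adjusted p = 0.03472). Camk2g exceeded Camk2d by 0.87 ± 0.25 and Camk2a by 1.35 ± 0.29, with the same p. Camk2d was above Camk2a in 5 of 6 libraries, and this pair did not pass (mean log2 difference 0.48 ± 0.35, exact permutation p = 0.0625, adjusted p = 0.0625). The exception was plate 1 replicate 2. Without plate 2 library 2 the difference of Camk2d and Camk2a was 0.54 and that of Camk2g and Camk2d 0.80.

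**Figure D2:**
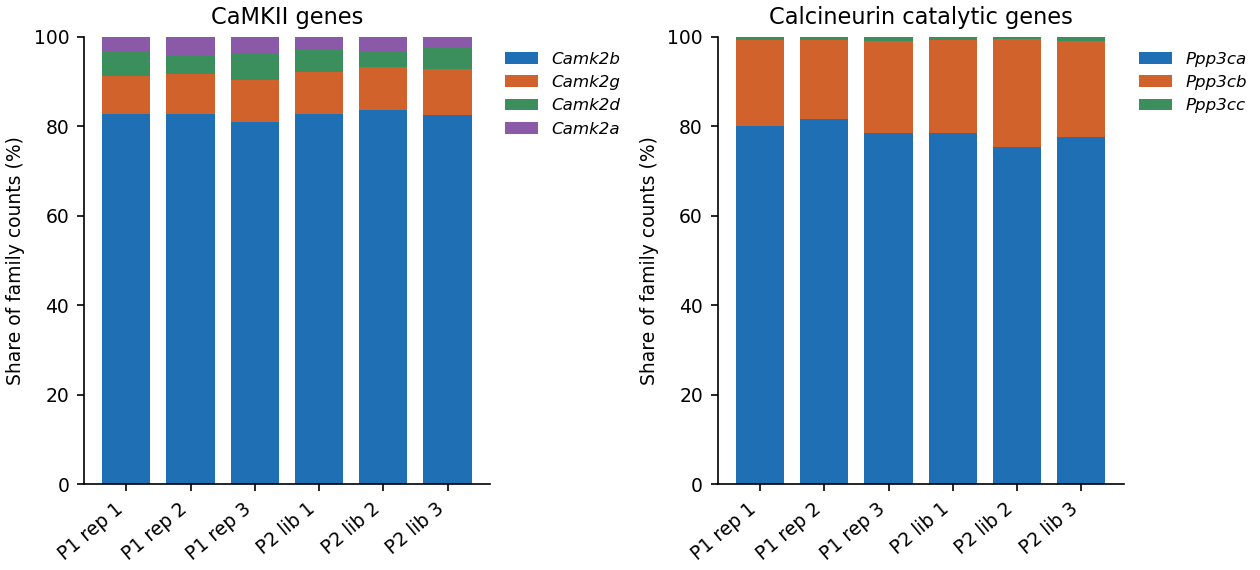
Share of the summed counts of the CaMKII genes (left) and of the calcineurin catalytic genes (right), in percent, that came from each gene in each library (P, plate; rep, replicate; lib, library). Camk2b held 80.9 to 83.6% and Ppp3ca 75.3 to 81.6% in every library.

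Among the catalytic subunits of calcineurin, Ppp3ca, the gene of the α form that predominates in brain, was highest. Ppp3ca (ENSMUSG00000028161, chromosome 3, 136670124 to 136937727, plus strand) had 211.1, 217.3 and 199.2 CPM on plate 1 and 273.5, 211.6 and 282.6 CPM on plate 2, from 4262 to 10311 counts. Plate 2 library 2 fell among the plate 1 libraries, so the plates overlapped, whereas plate 2 libraries 1 and 3 were above all of plate 1. Ppp3ca supplied 78.6 ± 2.16% of catalytic counts (SD, n = 6).

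Ppp3cb, the gene of the broadly expressed β form, gave nearly all the rest. Ppp3cb (ENSMUSG00000021816, chromosome 14, 20499364 to 20546573, minus strand) had 50.51, 47.06 and 52.38 CPM on plate 1 and 72.04, 68.29 and 78.38 CPM on plate 2. Every plate 2 library was above every plate 1 library. Its share of catalytic counts was 19.2 ± 1.48% on plate 1 and 22.2 ± 1.90% on plate 2 (each SD, n = 3), with the highest share, 24.3%, in plate 2 library 2. The ratio of Ppp3ca to Ppp3cb was 4.2 ± 0.408 on plate 1 and 3.5 ± 0.36 on plate 2 (each SD, n = 3).

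Ppp3cc, whose γ form is best known from testis, was a trace component. Ppp3cc (ENSMUSG00000022092, chromosome 14, 70217865 to 70289471, minus strand) had 1.875, 1.944 and 2.477 CPM on plate 1 and 2.777, 1.1 and 3.426 CPM on plate 2, from 34 to 125 counts. Plate 2 library 2 was the lowest of all 6, at 0.355 of the average of plate 2 libraries 1 and 3, and the mean was 2.267 ± 0.808 CPM with it and 2.5 CPM without it. Ppp3cc made up 0.758% of catalytic counts, from 0.391% (exact binomial 95% interval 0.271 to 0.546%) in that library to 0.975% (0.731 to 1.27%) in plate 1 replicate 3. Ppp3ca exceeded Ppp3cb by 1.92 ± 0.19 and Ppp3cc by 6.19 ± 0.27, and Ppp3cb exceeded Ppp3cc by 4.27 ± 0.40 on the log2 scale (SD, n = 6), each in 6 of 6 libraries (exact permutation p = 0.031, adjusted p = 0.03472).

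The regulatory subunit came almost entirely from Ppp3r1, the gene of the widely expressed calcineurin B that binds calcium through EF hands. Ppp3r1 (ENSMUSG00000033953, chromosome 11, 17159263 to 17200375, plus strand) had 234.4, 254.9 and 199.4 CPM on plate 1 and 236.8, 279.9 and 213.1 CPM on plate 2. The plates overlapped in part, and plate 2 library 2, in which all 3 catalytic genes were at their lowest for that plate, had the highest Ppp3r1 of all. Exons of Wdr92 on the same strand overlap those of Ppp3r1 in the annotation, and Wdr92 had 48 to 668 counts per library. The part of this overlap in the Ppp3r1 counts, and so in the ratios built on them, was not tested.

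Ppp3r2, the gene of a second calcineurin B known from testis, was close to the counting limit. It had 5, 3 and 6 counts on plate 1 and 15, 10 and 11 counts on plate 2, or 0.1326 to 0.5341 CPM. In plate 1 replicate 2 the count did not exceed the 3 counts that a count of 0 allows. Ppp3r2 made up 0.127 ± 0.0587% of regulatory counts (SD, n = 6), with an exact binomial 95% interval of 0.0107 to 0.152% in the lowest library and 0.126 to 0.371% in the highest. Ppp3r1 exceeded Ppp3r2 by 7.51 ± 0.24 on the log2 scale of CPM + 1 (SD, n = 6) in 6 of 6 libraries (exact permutation p = 0.031, adjusted p = 0.03472), a size that the pseudocount sets. Adding 0.1 CPM in place of 1 gave 9.28, and adding 5 CPM gave 5.50.

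The position of Ppp3r2 bears on these few counts. Ppp3r2 (ENSMUSG00000028310, chromosome 4 of GRCm38, 49678747 to 49682024, minus strand) lies on the same strand within an intron of Grin3a (49661611 to 49845744), which encodes the GluN3A subunit of the NMDA receptor. Its 2 exons (49678747 to 49681187 and 49681440 to 49682024) sit in the intron from 49672638 to 49702718 and share no base with an exon of Grin3a. Grin3a had 308 to 714 counts per library, and Ppp3r2 reached 0.974 to 3.01% of the Grin3a level. Reads of Grin3a pre-mRNA that fell within the Ppp3r2 exons could not be told from Ppp3r2 transcripts by strand, and their part in the Ppp3r2 counts was not tested.

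The upstream sequences of the genes with the highest and the lowest mean CPM over all 6 libraries are shown. These genes encode forms of the same subunit that lay at opposite ends of the order. Each is the stretch of 100 bases from 150 to 51 bases before the RefSeq start (RefSeq, GRCm38.p6), outside the exons of the gene, written 5′ to 3′ on the strand of the gene with each CG dinucleotide in capitals.
Ppp3r1, chr11:17159148-17159247, plus strand: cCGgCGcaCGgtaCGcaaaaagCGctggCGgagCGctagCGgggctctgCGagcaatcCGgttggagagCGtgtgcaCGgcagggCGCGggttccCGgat
Ppp3r2, chr4:49682034-49682133, minus strand: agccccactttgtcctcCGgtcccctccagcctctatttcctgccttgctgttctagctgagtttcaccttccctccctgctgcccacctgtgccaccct
Ppp3r1 held 15 CG dinucleotides, a number reached in 3.8% of the 32851 RefSeq promoter windows of the same length and place, and Ppp3r2 held 1, where 78.2% of them hold 1 or more. The motif CG reads the same on both strands. The GC content was 70% and 60%.

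The same window is shown for the highest CaMKII gene and for Camk2d, the only other CaMKII gene with a RefSeq window. They differed 17.1-fold in mean CPM.
Camk2b, chr11:6065799-6065898, minus strand: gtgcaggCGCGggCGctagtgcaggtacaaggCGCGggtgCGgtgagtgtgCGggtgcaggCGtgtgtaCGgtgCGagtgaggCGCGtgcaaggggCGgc
Camk2d, chr3:126596801-126596900, plus strand: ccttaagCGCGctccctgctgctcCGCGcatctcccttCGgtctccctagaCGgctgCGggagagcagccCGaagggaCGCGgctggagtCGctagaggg
Camk2b held 13 CG dinucleotides and Camk2d 11, numbers that 6.75% and 11.2% of windows reach. Both windows are upstream of the RefSeq start used here but lie within the wider bounds of the gene in the GENCODE annotation, which places an earlier start for some transcripts. The Nos1 window also precedes a RefSeq start far inside the GENCODE bounds of Nos1. Ppp3cb, with a mean of 61.44 CPM, held 3, and Nos1 held 4. From the highest to the lowest mean CPM, the 6 genes with a RefSeq window held 15 (Ppp3r1), 13 (Camk2b), 4 (Nos1), 3 (Ppp3cb), 11 (Camk2d) and 1 (Ppp3r2). A count of letters in a window is a description and not a sign of activity.

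Calcineurin works as a dimer of 1 catalytic and 1 regulatory subunit, so the summed transcripts of each kind were set against each other. The catalytic genes summed to 296 ± 47.6 CPM and the regulatory genes to 237 ± 28.8 CPM (each SD, n = 6). Their ratio was 1.12, 1.04 and 1.27 in plate 1 replicates 1, 2 and 3 and 1.47, 1.00 and 1.71 in plate 2 libraries 1, 2 and 3. It was 1.27 ± 0.274 over all libraries and 1.32 without plate 2 library 2. The catalytic genes were therefore at or above the regulatory genes in each library, and within plate 2 the ratio spanned the whole range of the data. The CaMKII genes summed to 143 ± 20 CPM. The ratio of CaMKII to catalytic calcineurin was steadier, at 0.484 ± 0.0245 (SD, n = 6), with 0.485 ± 0.0201 on plate 1 and 0.482 ± 0.0331 on plate 2 (each SD, n = 3). These are ratios of transcripts and do not give the amounts of protein.

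**Figure D3:**
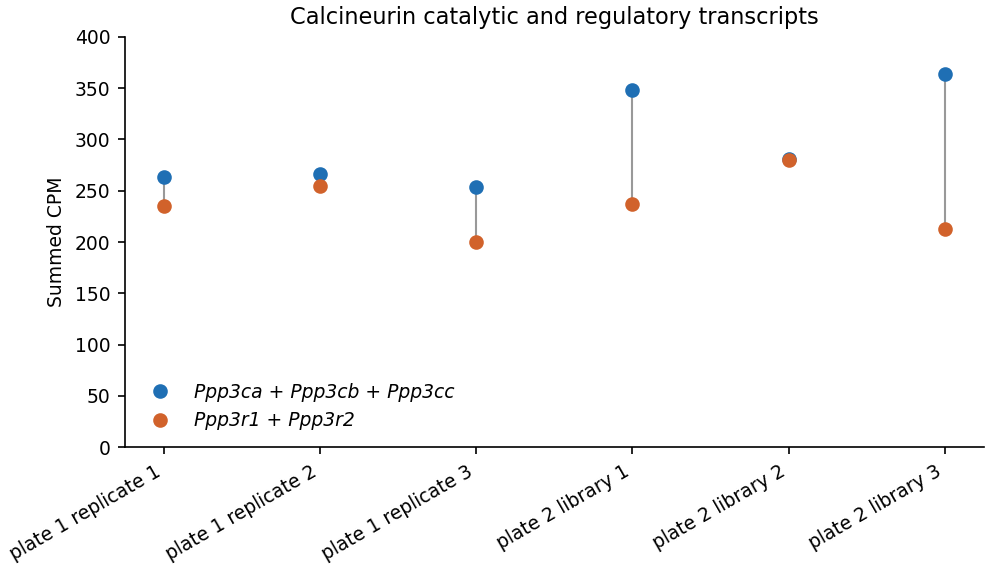
Summed CPM of the catalytic (blue) and regulatory (orange) calcineurin genes in each library, with a grey line joining the sums of a library. The points lie together in plate 2 library 2 (ratio 1.00) and farthest apart in plate 2 library 3 (ratio 1.71).

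Nos1, the gene of neuronal nitric oxide synthase, was the fourth of the 10 genes by mean level, beside Ppp3cb. Nos1 (ENSMUSG00000029361, chromosome 5, 117781032 to 117958840, plus strand) had 56.18, 70.12 and 51.68 CPM on plate 1 and 68.08, 65.47 and 61.03 CPM on plate 2, from 1106 to 2227 counts. The plates overlapped, and the 2 extremes were both on plate 1. Its coefficient of variation over the 6 libraries was 11.5% on this scale and 14% on the TMM scale described below. The order of the genes by this measure depended on the scale, with Camk2b at 14.4% and 6.92%, Camk2g at 17.8% and 8.67%, and Camk2a at 10.7% and 17.2%. Ppp3cc (35.7% and 31.6%) and Ppp3r2 (45.7% and 37.9%) were the most variable on both. An antisense gene, Gm26995, overlaps exons of Nos1 on the opposite strand, with 20 to 27 counts per library. Of the other nitric oxide synthase genes, Nos3, the endothelial form, had 2.62 ± 0.691 CPM (SD, n = 6) and Nos2, the inducible form, had 1 count in a single library. Grin1, the gene of the obligatory NMDA receptor subunit, had 14.75 ± 4.83 CPM (13.23 without plate 2 library 2). It had 10.94 ± 2.06 and 18.56 ± 3.26 CPM on plates 1 and 2 (each SD, n = 3). Grin1 was higher in every plate 2 library than in any plate 1 library, as were 35.2% of all genes tested between the plates on this scale. Between the plates Grin1 did not pass with edgeR and TMM (0.50 on the log2 scale, adjusted p = 0.239). It passed with edgeR and the total count alone (0.76, adjusted p = 0.0453), as did 9.32% of all genes tested, in either direction. Within libraries, Nos1 was 2.93 to 8.02 times and Camk2b 5.41 to 12.1 times the Grin1 level of the same library. The mean ratios were 4.62 and 8.55 with plate 2 library 2 and 4.96 and 9.18 without it. Nos1 over Grin1 was 5.68 ± 2.08 on plate 1 and 3.56 ± 0.582 on plate 2, and Camk2b over Grin1 was 9.81 ± 2.27 and 7.29 ± 1.64 (each SD, n = 3).

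The only contrast within the series is that of the plates, that is, of passage 27 with passage 23. The edgeR quasi-likelihood test with TMM scaling was fitted to 15669 genes, of which 0.185% passed an adjusted p of 0.05 (0.0128% higher and 0.172% lower on plate 2). DESeq2 called 3.73% (1.00% higher and 2.73% lower), and limma-voom with TMM called 30 genes. Of the 10 genes, 9 were tested and Ppp3r2 did not pass the filter on low counts. The number of the 9 that differed between the plates was 0 with edgeR, 0 with DESeq2 and 0 with limma-voom. At an unadjusted p under 0.05 it was 1 with edgeR, Ppp3cb, and 0 with DESeq2, where 16.1% and 14.7% of all genes tested did so. The median log2 fold change of the 9 was -0.05, beside 0.031 over all genes tested. Ppp3cb had the highest log2 fold change of the 9, 0.28 ± 0.11 (edgeR adjusted p = 0.267, ± standard error), and Camk2a the lowest, -0.33 ± 0.21 (adjusted p = 0.491). Camk2b was at 0.07 ± 0.11, Camk2g at 0.17 ± 0.14, Ppp3ca at 0.02 ± 0.13, Ppp3r1 at -0.19 ± 0.15 and Nos1 at -0.14 ± 0.15 (log2 fold change ± standard error), with adjusted p from 0.602 to 0.962. Camk2d (-0.10 ± 0.23) and Ppp3cc (-0.05 ± 0.39) had the widest errors. A p that misses the threshold does not show that the plates were alike.

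The direction of these differences depended on the scaling. Scaled by the total count alone, the median of all genes was 0.299 higher on plate 2, 9.32% of genes passed (8.87% higher and 0.453% lower, and 32.0% in either direction before adjustment), and 8 of the 9 genes lay above 0 with a median of 0.22. There Ppp3cb passed with edgeR at 0.54 ± 0.11 (adjusted p = 0.0323), while Camk2g (0.44, adjusted p = 0.0781) and Camk2b (0.34, adjusted p = 0.0797) did not. The calls over all genes were 2 higher and 27 lower with TMM, and 1390 higher and 71 lower with the total alone. On CPM over the total, 3 of the 9 tested genes (Camk2b, Camk2g and Ppp3cb) had every plate 2 library above every plate 1 library, as did 35.2% of genes tested, a share close to theirs, and 0 of the 9 lay below, as did 4.00%. On the TMM scale Ppp3cb alone stayed above, as did 12.8% of genes, and Camk2a lay below, as did 12.0%. Without plate 2 library 2, edgeR called 1911 genes, or 12.0% (4.20% higher and 7.83% lower), and 0 of the 9 genes were among them. Ppp3cb was thus higher on plate 2 in direction under both scalings but passed the test with only one of them.

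**Figure D4:**
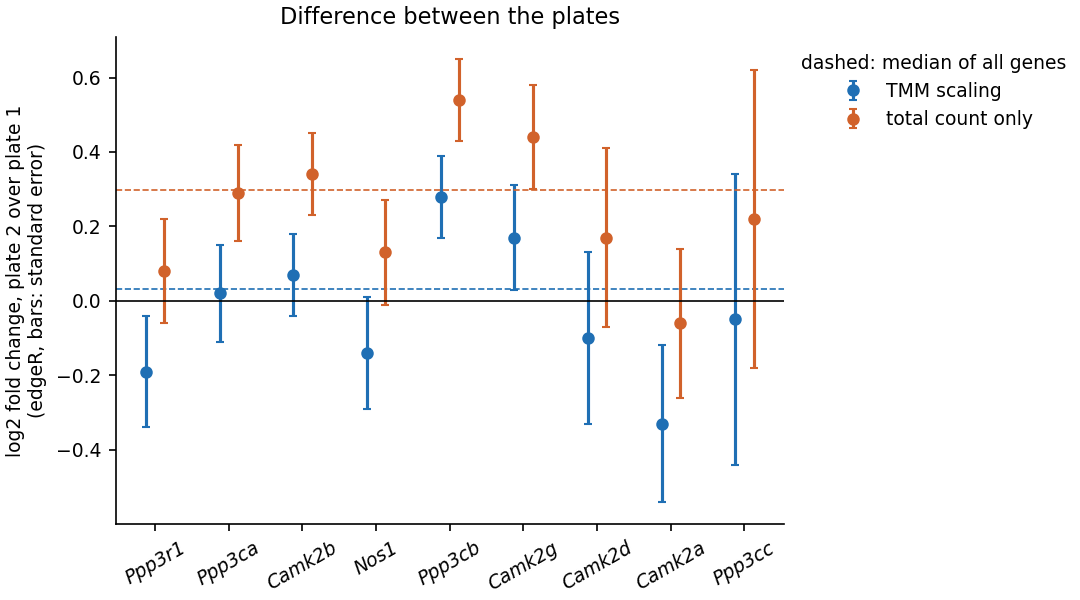
Log2 fold change of plate 2 over plate 1 from edgeR for the 9 tested genes, with TMM scaling (blue) and with the total count alone (orange); bars are standard errors and dashed lines the median of all genes, 0.031 and 0.299. Each orange point lies above its blue point, and Ppp3cb is highest under both.

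Genes of calmodulin, which activates all of these enzymes, were more abundant than any of the enzyme genes. Calm2 had 909.5 ± 233 CPM (975.8 without plate 2 library 2, which had 578) and Calm3 had 825.2 ± 152 CPM (SD, n = 6). Calm3 had a log2 fold change of -0.68 between plate 2 and plate 1 (standard error 0.13), which missed the threshold with edgeR (adjusted p = 0.0832) and passed it with DESeq2 (adjusted p = 0.00117). Of the 5 genes of calmodulin and of proteins that bind it reported here, 5 had more than 3 counts in every library. Between the plates 0 of them passed the edgeR test, beside 0.185% of all genes tested, and 2 did so without adjustment, beside 16.1%.

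Of the other calmodulin-dependent kinases and the CaMKII inhibitors, 8 of 10 genes had more than 3 counts in every library. Between the plates 0 of the 8 tested passed and 1 did so without adjustment, beside 0.185% and 16.1% of all genes tested. Camk2n1, which encodes a small protein that inhibits CaMKII, was highest with 217.6 ± 59.6 CPM (SD, n = 6), or 1.56 ± 0.537 times the summed CaMKII genes of the same library. It had 253, 258 and 248 CPM on plate 1 and 235, 101 and 211 CPM on plate 2, with plate 2 library 2 lowest. Every plate 2 library was thus below every plate 1 library. Camk2n1 shared this with 4.00% of all genes tested on this scale, and with 12.0% on the TMM scale. Its ratio to the CaMKII genes was 2.00 ± 0.0978 on plate 1 and 1.13 ± 0.374 on plate 2 (each SD, n = 3). Without plate 2 library 2 its mean was 240.9 CPM and the ratio 1.74. Between the plates, edgeR put it at -0.75 ± 0.28 (log2, ± standard error), which did not pass (adjusted p = 0.265). Camk1, a broadly expressed kinase of the same calmodulin-dependent group, followed with 73.32 ± 13.9 CPM (67.88 CPM without plate 2 library 2, where it was highest).

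Of the genes that restrain or anchor calcineurin, 0 of 9 tested passed between the plates, beside 0.185% of all genes tested. Without adjustment 1 did so, beside 16.1%. Of all 10 genes of the list, 8 had more than 3 counts in every library. Highest were the genes of the immunophilins that carry calcineurin inhibitors, Ppia (2117 ± 276 CPM), which encodes cyclophilin A, and Fkbp1a (597.0 ± 68.6 CPM), which encodes FKBP12. Among calcineurin targets, 9 of 11 had more than 3 counts in every library and 0 of 9 tested passed, with or without adjustment. Nfatc3 (38.44 ± 7.82 CPM) and Nfatc1 (12.44 ± 1.40 CPM) were highest, both encoding NFAT factors, while Nfatc4 had at most 3 counts.

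Of the other nitric oxide synthases, their partners and the enzymes of their cofactor and inhibitors, 7 of 8 genes had more than 3 counts in every library, Nos2 being the exception. Between the plates 0 of the 7 tested passed and 1 did so without adjustment, beside 0.185% and 16.1% of all genes tested. Dynll1, the dynein light chain that binds neuronal nitric oxide synthase, had 482.5 ± 34.4 CPM, Gch1, the first enzyme in making its cofactor tetrahydrobiopterin, had 108.4 ± 23.3 CPM (117.8 without plate 2 library 2), and Dlg4, the gene of PSD-95, had 102.7 ± 7.87 CPM (SD, n = 6). Of the receptor and effectors of nitric oxide, 8 of 10 had more than 3 counts in every library, 0 of 8 tested passed and 1 did so without adjustment. The highest were Pde1a (37.07 ± 4.74 CPM), a calmodulin-activated phosphodiesterase, and Gucy1b1 (29.44 ± 5.28 CPM), the β1 subunit of soluble guanylyl cyclase. Its α1 partner Gucy1a1 had 2.155 ± 0.663 CPM (SD, n = 6), and Gucy1b1 was above it in each library.

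**Figure D5:**
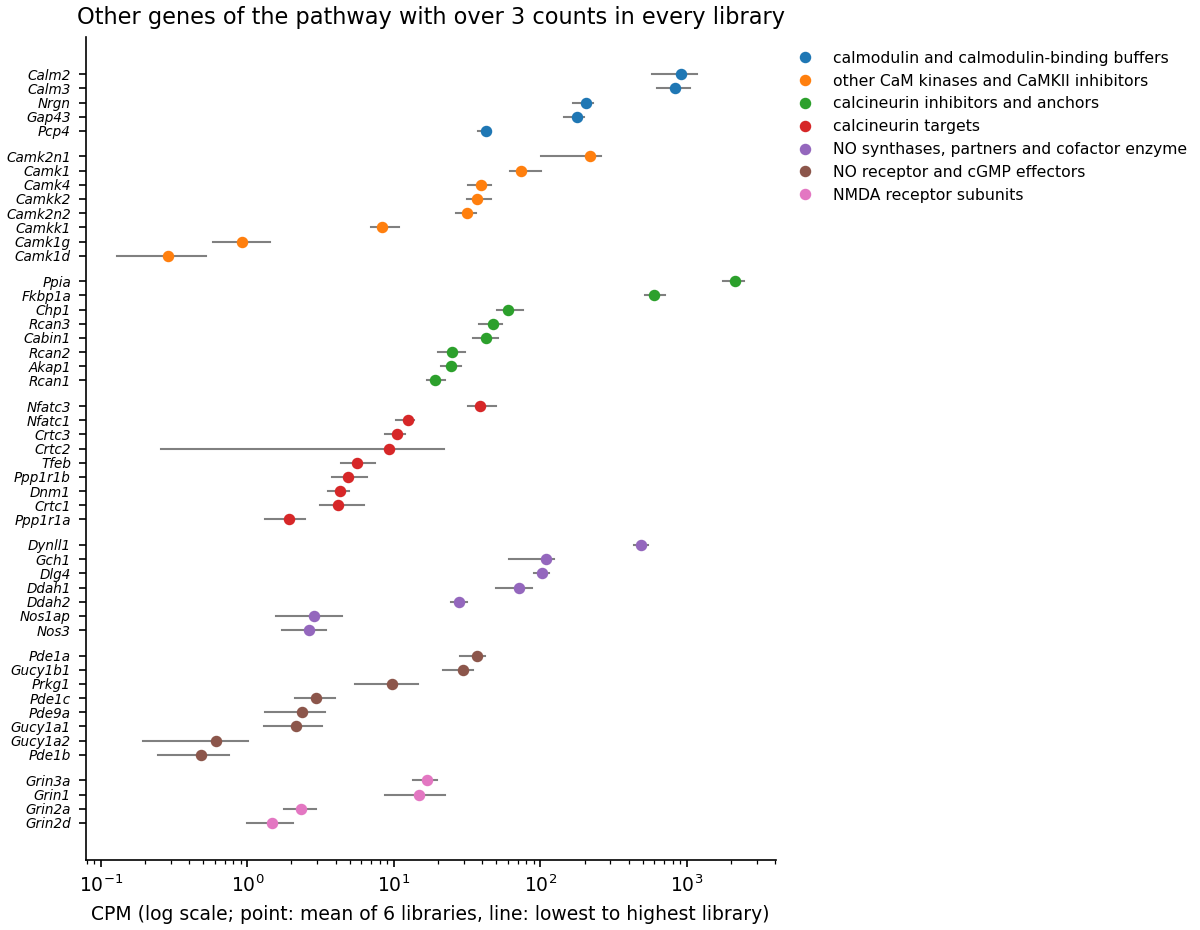
Mean CPM on a log scale (points) with the lowest and highest library (lines) for the other pathway genes reported here with more than 3 counts in each of the 6 libraries, grouped by list and coloured by list. Ppia lies farthest right, at a mean of 2117 CPM, and Crtc2 has the longest line, from 0.259 to 22.1 CPM.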

How the data were processed

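Libraries of 6 wells of GLUTag cells were made from poly(A) RNA with a QuantSeq 3′ FWD kit. The authors trimmed reads with Trim Galore 0.6.4, and quantified them with Salmon 1.5.1 on a decoy-aware GENCODE M23 index (GRCm38), with length correction turned off. The deposited table holds expected counts per gene, not normalized. Of the 60 values of the 10 genes, 54 were whole within 0.001 counts and none was farther than 0.098 from a whole number. The strand setting of the counting is not given in the sources used here. Within the transcript ends of the 10 genes (last 300 bases), no other gene matched at 95% identity over 100 bases (BLAST 2.17.0).

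CPM was computed from the unrounded counts. Counts were rounded for edgeR 4.0.16 (TMM, filterByExpr, robust quasi-likelihood fit, Benjamini-Hochberg adjustment), DESeq2 1.42.0 and limma-voom 3.58.1, which were tested on simulated data. Python 3.11.15, scipy 1.17.1 and R 4.3.3 were used. Positions and symbols are from GENCODE M21 (GRCm38), in which 54107 of 54281 identifiers were found. No 2 libraries were alike within sampling noise (chi-square per gene at least 10.9). All 10 genes are named, and of each pathway list the 2 with the highest mean, those that pass the test between plates and those that define the list. One gene of these lists is not reported here. The genes and lists were chosen with earlier results of these data known. Calm3, Gucy1a1, Nfatc4, Crtc1, Crtc2, Crtc3, Dlg4, Nos2, Nos3 and the marker and overlapping genes were named after their values were seen. Alternatives were other scalings, tools, filters and pseudocounts, one plate alone, the omission of each library and a block on the number in the column names.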

Additional observations from a re-analysis of the deposited data

Results flagged for a closer look

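Each library was compared with the other 5 for 36 values (CPM, shares and ratios of the genes named above), by the gap of the highest or lowest library relative to the whole range. The gap exceeded Dixon's 95% critical value for 6 samples in 3 of them, and about 1 in 20 does so by chance. All 3 concern plate 2 library 2 and none is a CaMKII, calcineurin or Nos1 value. Camk2n1 was at 101 CPM there against 211 to 258 CPM elsewhere (ratio 0.7). Camk1 was at 101 CPM against 61.7 to 72.9 CPM (ratio 0.712). Gch1 was at 61.4 CPM against 112 to 123 CPM (ratio 0.812). That library differed from the others of its plate over many genes, and the part of this in the 3 values was not tested.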

How the results depend on the processing

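Genes called between the plates numbered 29 with edgeR and TMM, 584 with DESeq2, 1461 with the total count alone and 545 without a filter on low counts. They ranged from 0 to 1911 when one library was left out, with 0 without plate 1 replicate 1 or plate 2 library 1 and 1911 without plate 2 library 2. The number of the 9 tested effectors among them was 0 under 12 of 13 alternatives and 1, Ppp3cb at 0.54, with the total alone. With the total alone, the log2 fold changes of Camk2d (0.17), Ppp3cc (0.22), Ppp3r1 (0.08) and Nos1 (0.13) turned positive, and with DESeq2 that of Ppp3ca was -0.002. Over the omissions of one library it ranged from -0.001 to 0.11 for Camk2b, -0.24 to 0.04 for Camk2d, -0.06 to 0.10 for Ppp3ca, -0.39 to 0.26 for Ppp3cc and -0.25 to 0.02 for Nos1, which changed sign. The others did not, with -0.40 to -0.20 for Camk2a (the latter without plate 1 replicate 2), 0.11 to 0.20 for Camk2g, 0.22 to 0.30 for Ppp3cb, and -0.34 (without plate 2 library 2, adjusted p = 0.0677) to -0.08 (without plate 1 replicate 2) for Ppp3r1 with edgeR. The causes were not tested. The 10 differences between genes of a family kept their direction and side of the threshold with pseudocounts of 0.1 and 5 CPM and with TMM, which the arithmetic largely fixes, but their size moved, for Ppp3cb and Ppp3cc from 4.75 to 3.18. With 5 libraries the smallest p is 0.0625, so omissions give values without a test. Levels, shares and ratios moved by less than 1 SD under each alternative run, which a mean over part of the libraries cannot avoid. Ppp3r2 rested on 3 to 15 counts per library. The Ppp3cc share of catalytic counts was 0.391% in plate 2 library 2 and 0.712 to 0.975% in the other libraries. The cause of this difference was not tested. In the sample labels no replicate number occurs on both plates, but the column names number the libraries 1 to 3 on each plate. With that number as a replicate block, an alternative chosen after seeing the data, 5 genes were called and 0 of the 9 effectors. Equal numbers correlated at 0.08, 0.08 and 0.13 in their deviations from the plate means, each library's highest, and unequal numbers at -0.11 to -0.01. The numbers were not taken as pairs, since no label gives them that meaning and not every correlation was over 0.1.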

Other observations

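Crtc2, which encodes a CREB coactivator that calcineurin dephosphorylates, had the widest range among the 9 calcineurin targets with more than 3 counts in every library, and it was singled out after its values were seen. It had 166, 122 and 206 counts on plate 1 and 307, 8 and 807 counts on plate 2, or 6.92, 5.39, 9.63, 10.9, 0.259 and 22.1 CPM. Plate 2 library 2 thus had 0.0157 of the mean of the other plate 2 libraries. Its relatives Crtc1 (3.13 to 6.28 CPM) and Crtc3 (8.64 to 12.0 CPM) kept within a narrow range, as did Nfatc1 (10.3 to 13.8 CPM). No explanation was tested.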
